A study of Mus musculus with 4 samples.

Results

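The collagen chains are the genes whose symbol has the form Col, a type number, the letter a and a chain number. In the expression table of sciatic nerve, 44 of 50593 genes had such a symbol, and all 44 had a value above 0 in both groups. They were divided into 11 fibrillar chains, 8 basement membrane chains and 25 other chains. Per the labels, each group had 2 mice of strain 129S1/SvImJ, 6 months old (HSF V30M and HSF WT), while the methods give n = 4 without saying whether this is per group. Mice of both groups carry a heterozygous deletion of Hsf1, the gene of heat shock factor 1. HSF V30M mice carry in addition a transgene for human TTR V30M, the transthyretin variant of an inherited amyloid neuropathy, and lack endogenous Ttr. The promoter of the transgene is not given in the sources used here. The authors ran Cuffdiff, which gives for each gene and group 1 value in FPKM, the number of fragments per kilobase of transcript after scaling to depth and so a level per length. Values of single mice are not analysed here. The spread between mice is therefore unknown, no comparison below has a test, and the difference of each chain between the groups has no replicate check.

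Collagens are proteins of the extracellular matrix in which 3 chains wind into a triple helix. Glycine returns at every 3rd residue of the helix and is the only residue small enough for its centre. Fibrillar collagens form the cable-like fibrils of the epineurium and endoneurium. Type IV collagen forms the network of the basement membrane that surrounds each Schwann cell, perineurial cell and blood vessel of the nerve, and the multiplexins of types XV and XVIII sit at the same membranes. Type VI makes beaded filaments between the membrane and the fibrils, and the fibril-associated collagens with interrupted helices (FACIT) coat the fibrils.

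The repeat can be read in the coding sequence, where a codon of the form GGN, which stands for glycine, returns with a period of 3 codons. The 6 stretches below are examples from fibrillar chains, from Col8a2 of the other chains and from Col4a1 of the basement membrane chains. They are read on the coding strand from GENCODE transcripts of GRCm38, and GGN codons that keep the repeat are in capitals. The stretches of Col1a1 (chr11:94939904-94939957, plus strand, exon 8 of 51), Col1a2 (chr6:4515481-4515534, plus strand, exon 8 of 52), Col3a1 (chr1:45325360-45325413, plus strand, exon 6 of 51) and Col5a2 (chr1:45422386-45422439, minus strand, exon 10 of 54) are whole coding exons of 54 bases. That of Col8a2 (chr4:126311132-126311185, plus strand, exon 4 of 4) opens its longest repeat. That of Col4a1 (chr8:11235141-11235200, minus strand, exon 21 of 52) spans an interruption.
Col1a1: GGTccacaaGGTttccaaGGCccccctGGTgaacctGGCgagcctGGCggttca
Col1a2: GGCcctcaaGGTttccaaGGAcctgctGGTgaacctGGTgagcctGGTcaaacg
Col3a1: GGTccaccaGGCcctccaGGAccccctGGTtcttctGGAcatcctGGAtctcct
Col5a2: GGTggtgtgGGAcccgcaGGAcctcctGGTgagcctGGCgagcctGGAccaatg
Col8a2: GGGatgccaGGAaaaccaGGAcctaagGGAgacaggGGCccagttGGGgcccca
Col4a1: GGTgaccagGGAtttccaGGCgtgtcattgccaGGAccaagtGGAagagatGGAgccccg

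In the fibrillar exons the repeat fills the exon without a break, while in the Col4a1 stretch the step between neighbouring capitals is longer once, after the third GGN codon. The same contrast held over the whole coding sequences. The longest unbroken run was 216 to 344 repeats in the 11 fibrillar chains, 30 to 66 in the 8 basement membrane chains and 23 to 113 in the 25 others. It was 338 in Col1a1, 344 in Col3a1, 40 in Col4a1 and 60 in Col8a2. Fibrillar chains had 21 to 33 coding exons of exactly 54 bases, basement membrane chains 1 to 3, and the others 0 to 28, the highest of these being Col22a1. Within the fibrillar class Col24a1 and Col27a1 stood apart, with runs of 216 and 217. These features describe the genes and were not set against the expression values.

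**Figure D1:**
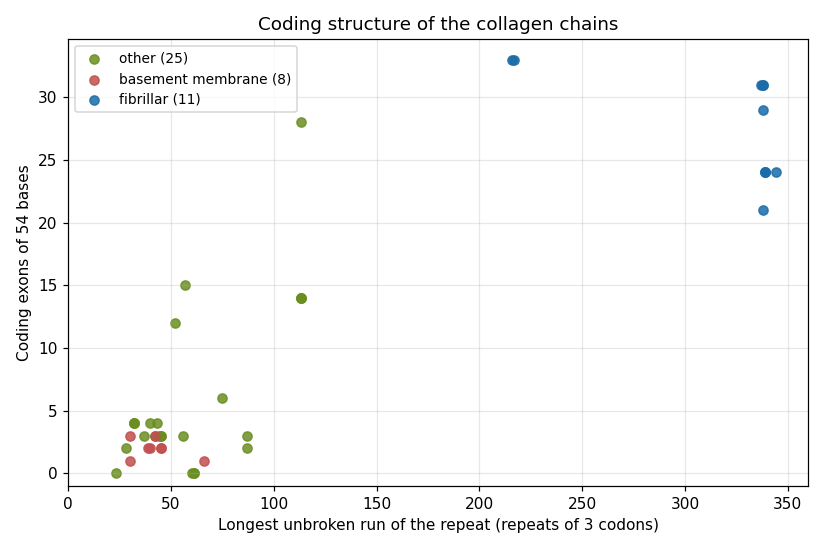
Coding structure of the 44 collagen chains: the horizontal axis gives the longest unbroken run of the glycine codon repeat, the vertical axis the number of coding exons of 54 bases, and each point is 1 chain coloured by class. Fibrillar chains lie at 216 to 344 repeats, and no chain of the other classes exceeds 113.

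The nerve was identified by its Schwann cell genes: all 12 listed markers were above the minimum, and Prx, which encodes the myelin scaffold periaxin, reached 730.0 FPKM in HSF WT and 899.9 in HSF V30M. Hsf1 stood at 15.0 in HSF WT and 7.94 in HSF V30M, a ratio of 0.531 (counting interval 0.456 to 0.617) past the fold of 1.5 used below, although both groups are described with the same heterozygous deletion. Mouse Ttr was at 6.10 in the libraries labelled HSF V30M, which should lack the endogenous gene, and those labelled HSF WT gave 0, with 3 fragments worth 0.197 there. Reads of the human transgene and of mouse Ttr cannot be told apart in this table. Ttr therefore does not check the labels, and every direction below is that of the groups as labelled. Between the groups, the median log2 ratio was 0.00 over all 15620 genes whose mean FPKM was 1 or more. What 1 fragment is worth could be read from low values of single-transcript genes, and it put the 2 libraries of HSF WT at depths 1.35-fold apart and those of HSF V30M 1.18-fold apart.

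Of the 44 chains, 33 had a mean FPKM of at least 1. Their levels in HSF WT ran from 1.02 for Col9a3 to 317 for Col3a1. The 5 of highest mean, Col3a1, Col1a2, Col4a1, Col15a1 and Col1a1, held 61.5% of the summed collagen FPKM in HSF WT and 63.5% in HSF V30M. The sum over all 44 chains was 1749 in HSF WT and 1798 in HSF V30M, a ratio of 1.03. The same sum over all 50570 genes used had a ratio of 1.66, while the median log2 ratio over genes with a mean of at least 1 was 0.00. Among the collagen chains the order at the top differed between the groups: Col3a1 led in HSF WT, and Col1a2 led in HSF V30M with Col4a1 second. Fibrillar chains made up 53.5% of the sum in HSF WT and 49.6% in HSF V30M, and basement membrane chains 25.9% and 31.5%.

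**Figure D2:**
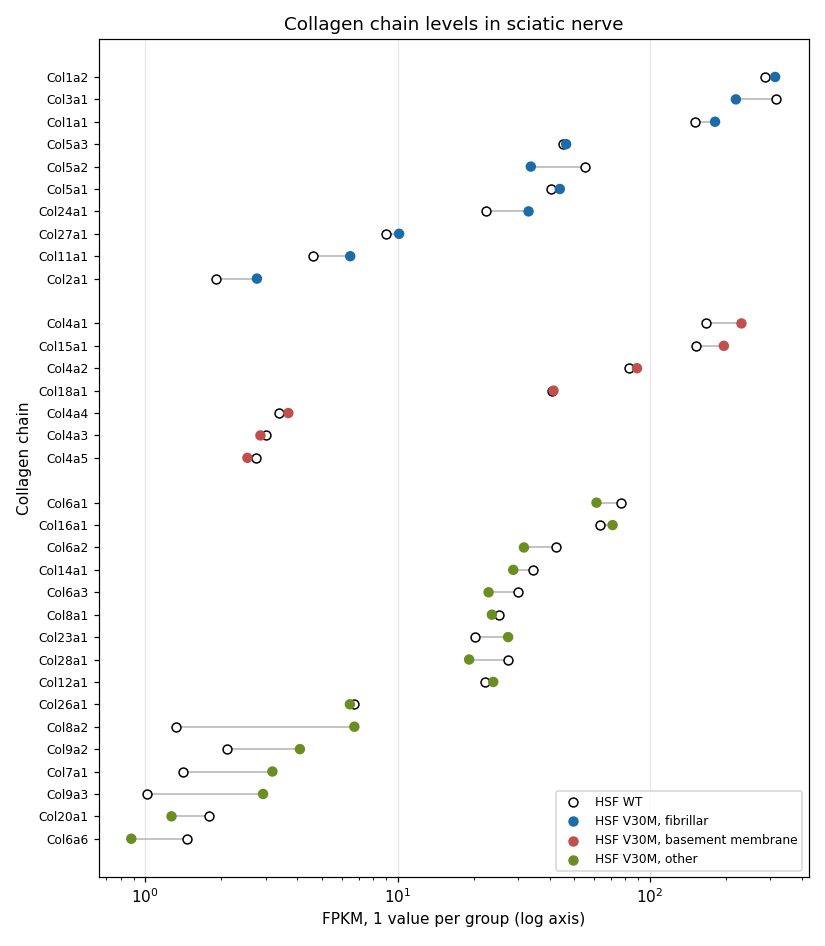
FPKM of the 33 collagen chains with a mean of at least 1, on a log axis, 1 row per chain: open circles are HSF WT, filled circles HSF V30M, coloured by class, and no error bar can be drawn because each group has 1 value. On this axis the filled circle lies furthest from the open one for Col8a2, at 6.74 against 1.32.

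A chain was counted as past the fold when (HSF V30M FPKM + 1) / (HSF WT FPKM + 1) or its inverse exceeded 1.5 at a mean FPKM of at least 1. By this count 4 of 33 chains were higher in HSF V30M (12.1%), where 8.22% of all 15620 genes were, and 1 was lower (3.03%), where 8.44% of all genes were. Counts this small stand near the background in both directions. With a fold of 2, 1 chain was higher and 0 lower, where 3.98% and 3.94% of all genes were. With a minimum mean FPKM of 5, 0 of 23 chains were higher and 1 lower, where 7.17% and 6.33% of genes were. With a pseudocount of 0.1, 4 were higher and 2 lower, where 10.9% and 10.8% of genes were. The median log2 ratio was 0.10 over the 33 chains, with 20 above 0 and 13 below. It was 0.14 over 10 fibrillar chains, 0.10 over 7 basement membrane chains and -0.06 over 16 others. For each chain, the fragments behind the values gave a 95% interval of the ratio HSF V30M over HSF WT that covers counting error only. It lay above 1 for 17 chains, below 1 for 10 and held 1 for 6. The same count was not taken over all genes, so these counts have no background beside them. With many fragments the interval leaves out 1 at small ratios too, as for Col1a2 at 1.09 (1.07 to 1.11). These intervals compare the libraries and say nothing of the spread between mice.

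**Figure D3:**
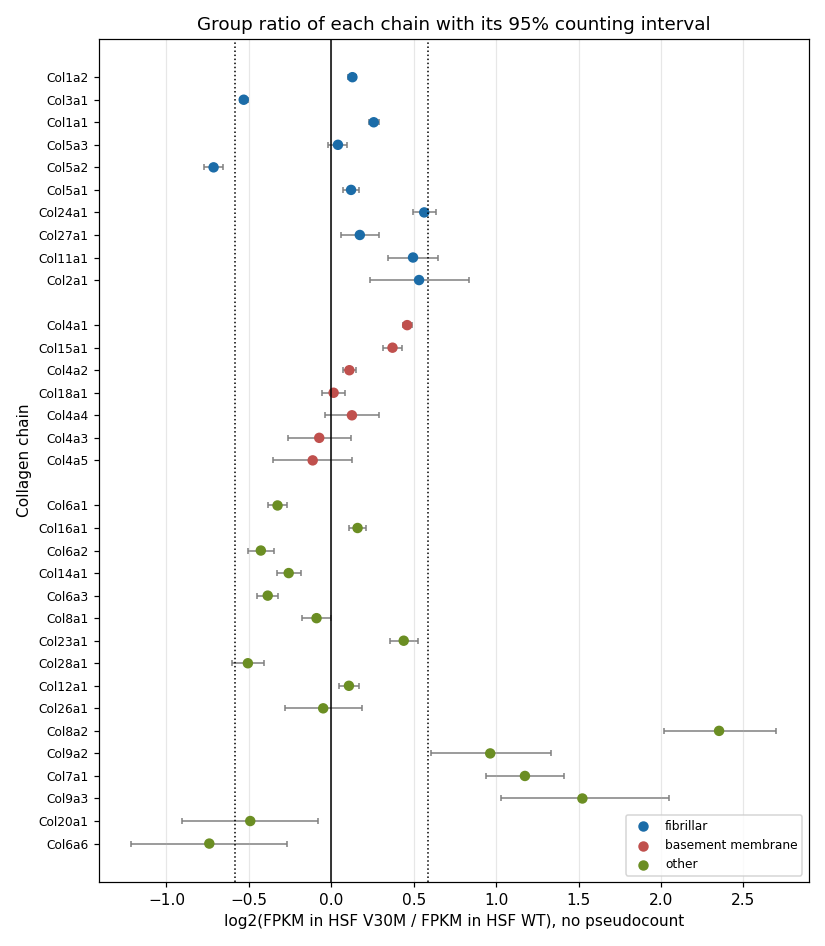
The log2 ratio of FPKM, HSF V30M over HSF WT, without a pseudocount, for the same 33 chains: points are coloured by class, bars are 95% intervals of counting error alone, and dotted lines mark a fold of 1.5. Col8a2, Col9a3, Col7a1 and Col9a2 lie right of the dotted lines and Col5a2 and Col6a6 left of them, Col6a6 being within the fold once the pseudocount of 1 is added.

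Among fibrillar chains with a mean FPKM of at least 1, the 2 lower ones were neighbours on chromosome 1. Col3a1 (chromosome 1, 45311538 to 45349706) encodes the chain of type III collagen, which forms thin fibrils together with type I. Its FPKM was 317 in HSF WT and 219 in HSF V30M, a ratio of 0.692 (counting interval 0.680 to 0.704) that stayed within the fold. Col5a2 (45374321 to 45503282), whose product sits with Col5a1 in the core of type I fibrils and limits their width, had 55.3 in HSF WT and 33.7 in HSF V30M. The ratio of Col5a2 was 0.610 (0.586 to 0.634), and Col5a2 was the only chain past the fold in the lower direction. The 2 genes lie 24614 bases apart and are transcribed towards each other.

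The type I chains were slightly higher in HSF V30M. Col1a1 (chromosome 11, 94936224 to 94953042) had 152 in HSF WT and 181 in HSF V30M, and Col1a2 (chromosome 6, 4504814 to 4541544) had 287 and 314. Their ratios of 1.20 (1.17 to 1.22) and 1.09 (1.07 to 1.11) were both within the fold. Type III and type I chains thus pointed in opposite directions, and the ratio of Col3a1 to Col1a1 was 2.09 in HSF WT and 1.21 in HSF V30M. The other type V chains stayed close to each other in both groups, with Col5a1 at 40.4 and 44.0 and Col5a3 at 45.3 and 46.6. As a result the ratio of Col5a1 to Col5a2, which share a heterotrimer, was 0.731 in HSF WT and 1.30 in HSF V30M. For the type I partners Col1a1 and Col1a2 it was 0.528 and 0.578.

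The 4 minor fibrillar chains above the minimum were higher in HSF V30M without passing the fold. Col24a1, a fibrillar chain known from bone, had 22.4 in HSF WT and 33.0 in HSF V30M, a ratio of 1.48 (1.41 to 1.55). Col11a1, which nucleates fibrils of cartilage, had 4.60 and 6.49, and Col2a1, the main cartilage chain, had 1.92 and 2.77. Col27a1 had 8.99 and 10.1, the smallest difference of these. Col11a2, a partner of Col11a1, was under the minimum and pointed the other way, with 1.10 in HSF WT and 0.73 in HSF V30M.

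No basement membrane chain passed the fold. Above the minimum, the ratio was furthest from 1 for Col4a1 and Col15a1, the most abundant chains of the class. Col4a1 (chromosome 8, 11198423 to 11312826), the main network chain, had 168 in HSF WT and 231 in HSF V30M, a ratio of 1.38 (1.35 to 1.40). Its partner Col4a2 (11312805 to 11449287) had 82.4 and 88.9, a ratio of 1.08 (1.05 to 1.11). The genes are arranged head to head and overlap by 22 bases, and Cuffdiff estimated them in 1 shared locus. The ratio of Col4a1 to Col4a2 was 2.03 in HSF WT and 2.59 in HSF V30M. Col15a1, the multiplexin of nerve, muscle and vessel basement membranes, had 152 and 196, a ratio of 1.29 (1.24 to 1.35), while Col18a1, the source of endostatin, had 41.1 and 41.5.

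The remaining type IV chains were of low level. Col4a3 had 3.01 in HSF WT and 2.86 in HSF V30M, and Col4a4, which starts 71 bases away on the opposite strand, had 3.38 and 3.69. Col4a5 had 2.75 and 2.54. The counting intervals of these 3 chains held 1. Col4a6, the head-to-head partner of Col4a5, was under the minimum with 0.395 and 0.61, an interval of 1.05 to 2.32 around a ratio of 1.54. Col4a3, Col4a4 and Col4a5 replace the main network in kidney glomeruli and some other sites.

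Of 6 type VI chains, 4 had a mean FPKM of at least 1, and all 4 had a lower value in HSF V30M without passing the fold. Col6a1 had 77.0 in HSF WT and 61.4 in HSF V30M, Col6a2 had 42.6 and 31.7, and Col6a3 had 29.97 and 22.9. The ratios were 0.798 (0.766 to 0.830), 0.743 (0.703 to 0.786) and 0.765 (0.732 to 0.800), so that the 3 partner chains of the classical heterotrimer were lower by a like amount. Col6a1 to Col6a2 stood at 1.81 in HSF WT and 1.94 in HSF V30M, and Col6a3 to Col6a1 at 0.389 and 0.373. Col6a6, an alternative to Col6a3, had 1.47 and 0.88, a ratio of 0.599 (0.431 to 0.829) as deposited, which passes the fold with a pseudocount of 0.1 and not with 1. Under the minimum, Col6a5 had 0.702 and 0.77. Over the 4 type VI chains above the minimum the median log2 ratio was -0.38, beside 0.00 for all genes.

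Col28a1, a chain with type VI-like domains known from the basement membranes of Schwann cells, was also lower, with 27.3 in HSF WT and 19.2 in HSF V30M, a ratio of 0.704 (0.658 to 0.754). Of the fibril-associated chains, Col14a1 had 34.4 and 28.7, Col20a1 1.79 and 1.27, Col12a1 22.2 and 23.9, and Col16a1 63.7 and 71.1. They thus pointed in both directions, and none of these passed the fold. Col23a1, a transmembrane collagen, had 20.2 and 27.4, a ratio of 1.36 (1.28 to 1.44). Col8a1 had 25.2 and 23.6, and Col26a1 had 6.69 and 6.47.

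The 4 chains past the fold in the higher direction were all of low level and all of the class of other chains. Col8a2 (chromosome 4, 126286793 to 126314330), a short chain that forms hexagonal lattices such as that beneath the corneal endothelium, had 1.32 in HSF WT and 6.74 in HSF V30M. These values stand for about 84 to 114 fragments against 606 to 715, and the ratio was 5.11 (4.06 to 6.50). Its usual partner Col8a1 differed little, so that Col8a1 exceeded Col8a2 19.1-fold in HSF WT and 3.51-fold in HSF V30M. Col9a2 (chromosome 4) and Col9a3 (chromosome 2), partner chains of the type IX collagen that decorates cartilage fibrils, had 2.10 and 1.02 in HSF WT and 4.10 and 2.93 in HSF V30M. Their ratios were 1.95 (1.52 to 2.52) and 2.87 (2.04 to 4.13). Col9a1, the third chain of type IX, had only 0.210 and 0.18, about 9 to 17 fragments in either group. Col7a1 (chromosome 9), the anchoring fibril chain of skin, had 1.41 and 3.19, a ratio of 2.26 (1.92 to 2.66).

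Cartilage and keratinocyte markers were read beside these chains. Of 12 cartilage, bone and tendon markers, 3 had a mean FPKM of at least 1. Comp had 24.9 in HSF WT and 14.6 in HSF V30M, Cnmd 11.8 and 5.91, and Sox9, which Schwann cell precursors also express, 7.47 and 9.26. Acan, the main cartilage proteoglycan, was at 0.0406 and 0.06, and Matn3 and Bglap were listed at 0 in both groups. The markers summed to 45.7 in HSF WT and 31.1 in HSF V30M. None of 7 keratinocyte markers reached a mean of 1, and their sums were 1.497 in HSF WT and 1.46 in HSF V30M, with Krt1, Lor and Dsg3 listed at 0 in both. The others pointed in both directions. Trp63 had 0.225 in HSF WT and 0.58 in HSF V30M, and Krt5 0 and 0.06. Krt10 had 1.15 and 0.79, and Krt14 0.122 and 0.03. The ratio of Trp63 was 2.58, with an interval of 0.932 to 8.84 at the lower end of the fragment range and 1.61 to 4.27 at the upper. The part of either cell type in the values of Col9a2, Col9a3 and Col7a1 was not tested.

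Genes that modify, fold, export, process, link and bind collagen were listed as 47 genes, of which 44 had a mean FPKM of at least 1. Of these, 3 were past the fold in the higher direction and 4 in the lower, beside 8.22% and 8.44% of all genes, and their median log2 ratio was -0.05. Among the enzymes that modify prolines and lysines, P4hb, the disulfide isomerase that is the β subunit of prolyl 4-hydroxylase, had 193 in HSF WT and 117 in HSF V30M, a ratio of 0.607 (0.565 to 0.651). Plod2, the lysyl hydroxylase of the chain ends, had 8.39 and 4.81. Colgalt2, a galactosyltransferase of hydroxylysine, had 1.30 and 3.28. The catalytic subunit P4ha1 had 40.1 and 30.4 and Plod1 20.2 and 22.7, both within the fold.

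The collagen chaperone Serpinh1, known as HSP47 and as a target of Hsf1, had 153 in HSF WT and 113 in HSF V30M, a ratio of 0.739 (0.710 to 0.770) within the fold. All 6 chaperone and export genes were within it. Pcolce2, an enhancer of procollagen cleavage, had 15.2 and 8.91 and was past the fold. Of the crosslinking enzymes, Loxl4 had 1.76 in HSF WT and 4.74 in HSF V30M and was past the fold, and Lox had 22.1 and 32.9, a ratio of 1.49 just within it.

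The 2 collagen receptors past the fold did so in opposite directions. Adgrg1, an adhesion receptor that binds type III collagen, had 35.8 in HSF WT and 12.2 in HSF V30M, a ratio of 0.341 (0.314 to 0.369). Ddr1, a receptor tyrosine kinase for collagens, had 16.4 and 28.5, a ratio of 1.74 (1.61 to 1.89). Ddr2 had 52.3 and 59.3, Itga1 13.2 and 12.6, Itgb1 80.1 and 83.9, and Adgrg6, a receptor of Schwann cells that binds type IV collagen, 23.5 and 27.6. These 4 stayed within the fold.

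The cell types that make collagen differed between the groups in some of their markers. All 12 fibroblast markers were above the minimum, 9 of them lower and 3 higher in HSF V30M, with a median log2 ratio of -0.29 and sums of 2472 in HSF WT and 2323 in HSF V30M. Dpt (64.7 and 33.7) and Pi16 (83.0 and 42.4), genes of epineurial fibroblasts, were past the fold in the lower direction, while Dcn (1320 and 1331) was not. These stand beside lower values of Col3a1, Col5a2 and the type VI chains above the minimum, and beside higher values of Col1a1, Col1a2 and Col5a1. Of the skeletal muscle genes above the minimum, 7 of 7 were past the fold in the lower direction, where 8.44% of all genes were (Acta1, Myh4, Ckm, Tnnt3, Mylpf, Actn3 and Ttn), with sums over the 10 listed of 153 and 44.4. Under the minimum, Myh1 was higher, with 0.224 in HSF WT and 0.53 in HSF V30M, and the counting intervals of Myh2 and Myh7 held 1. All 7 adipocyte genes had a lower value in HSF V30M, and 3 of them (Adipoq, Fabp4 and Lep) were past the fold, with sums of 3249 and 2354.

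Of the basement membrane chains, Col4a1 and Col15a1 were higher in HSF V30M. Col4a2, Col4a4 and Col18a1 had ratios of 1.08, 1.09 and 1.01, and Col4a3 and Col4a5 had slightly lower values. Beside this class, the perineurial list had 2 of 8 past the fold in the higher direction (Tenm2 and Msln), where 8.22% of all genes were. Its sums were 645 in HSF WT and 751 in HSF V30M. The endothelial list had 2 of 8 past the fold (Cldn5 and Flt1) and sums of 185 and 231. Both lists also held genes with a lower value in HSF V30M, 2 of 8 perineurial (Krt19 and Cldn1) and 3 of 8 endothelial (Pecam1, Kdr and Tek), none of them past the fold. Schwann cell genes had a median log2 ratio of 0.07, with 6 of 12 above 0 and 6 below, and S100b (201 and 328) was past the fold. The part of these cell types in the collagen values was not tested. In whole nerve, fewer cells of a type and less RNA per cell cannot be told apart.

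**Figure D4:**
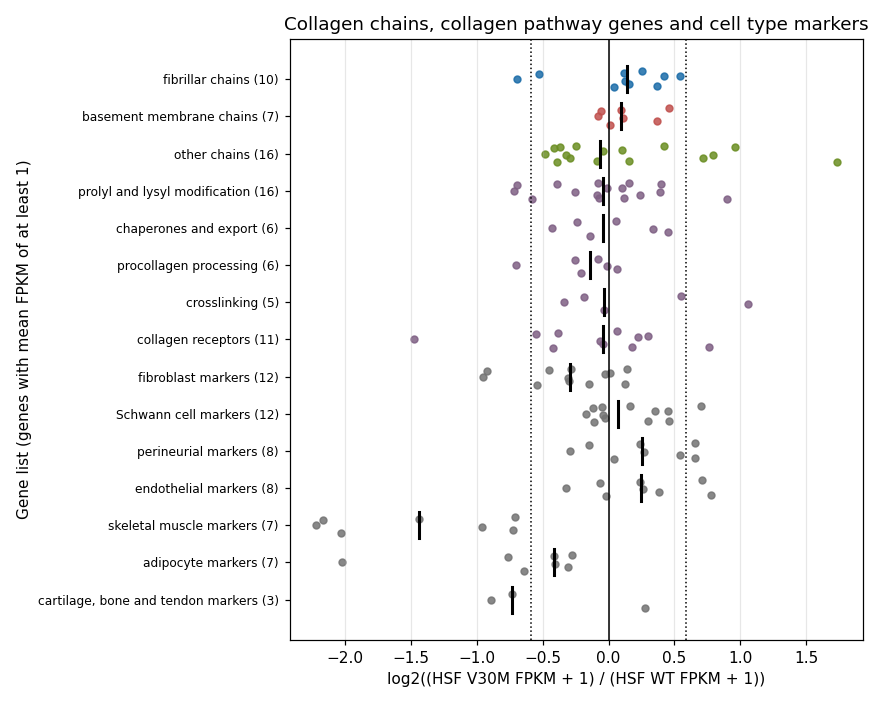
Group ratios on the log2 scale (HSF V30M over HSF WT, pseudocount of 1) for the collagen chains, the collagen pathway lists and the marker lists, 1 point per gene with a mean FPKM of at least 1, numbers of genes in brackets, black bars the medians and dotted lines a fold of 1.5. Medians of the chain and pathway lists lie between -0.14 and 0.14. Those of the muscle, cartilage, adipocyte and fibroblast lists lie further to the left, at -1.44, -0.73, -0.42 and -0.29. Perineurial and endothelial medians lie further to the right, at 0.26 and 0.25, and the Schwann cell median lies at 0.07.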

How the data were processed

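RNA of sciatic nerve was sequenced by the authors with Ion Torrent protocols. The submitters' processing notes name STAR, Cufflinks, Cuffdiff and the build GRCm38, without versions. GRCm38 is the C57BL/6J strain, while the mice are of strain 129. The deposited table holds 1 FPKM value per gene and group, estimated by the authors over the libraries of the group, with decimal commas. Its columns of fold changes, p-values and q-values are the authors' own comparison and were not used. Columns were read by number, commas were replaced by points, and all values were at or above 0. The 23 genes that Cuffdiff could not estimate for their depth of alignments were not used.

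For genes whose mean FPKM was 1 or more, the log2 of (HSF V30M + 1) / (HSF WT + 1) was taken, a scale that understates the change of low genes. A fold of 1.5 on this scale was counted. Ratios printed without "log2" are of the FPKM values as deposited. No test was run, since each group has 1 value.

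The worth of 1 fragment was found in genes of 1 transcript that share their locus with no other gene, on lengths shortened by 201 bases. Low values piled up at 0.0480 and 0.0647 FPKM times kilobases in HSF WT, where 98.3% of 933 values lay within 2%, and at 0.0390 and 0.0459 in HSF V30M, where 98.8% of 414 agreed within the rounding of the table. Fragments of a chain run from the shortest basic coding transcript and larger worth to the longest and smaller. The 95% intervals are exact conditional binomial intervals at the lower end and cover counting error only.

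Positions, transcripts and coding exons are from GENCODE M21 (GRCm38), which holds 50369 of the table's identifiers and lacks 224. Chains with a mean of at least 1 were all named, others where they complete a heterotrimer or gene pair, and genes of the other lists where past the fold, with 9 fixed genes beside them. Other marker genes are named to describe their list, chosen after their values were seen. Col3a1/Col1a1 and Col8a1/Col8a2 were compared after their values were seen. The chains and lists were chosen with earlier results of these data known. Values were computed with scipy 1.17.1, pandas 2.3.3 and numpy 2.4.6 under Python 3.11.15, and figures drawn with matplotlib 3.10.9. The alternatives were a pseudocount of 0.1, no minimum, a minimum of 5, median-of-ratios scaling (factors 1.001 and 0.999), a fold of 2, type IV chains alone and the upper end of the fragment range.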

Additional observations from a re-analysis of the deposited data

How the results depend on the processing

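No mouse was left out in turn and no replicate block was fitted, for want of values by mouse. No paired analysis was possible because each group has a single pooled estimate.

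The 4 chains past the fold in the higher direction were 0 with a minimum mean FPKM of 5, where 23 chains are left, and 1 with a fold of 2, which was Col8a2. The 1 chain in the lower direction became 2 with a pseudocount of 0.1, which adds Col6a6 (log2 ratio -0.68), and 0 with a fold of 2. Of the pathway genes, the 3 higher became 1 with a minimum of 5 and 1 with a fold of 2, and the 4 lower became 7 with a pseudocount of 0.1, 5 with median-of-ratios scaling, 5 without a minimum and 1 with a fold of 2. A higher minimum and a larger fold are stricter by construction. The median of the other chains turned from -0.06 to 0.053 without a minimum, where 9 chains of lower mean FPKM are added, and was -0.17 with a minimum of 5. That of the basement membrane chains was 0.24 with a minimum of 5, where 4 chains are left. The Col4a5 to Col4a6 ratio of HSF V30M over that of HSF WT went from 0.599 to 0.819 with a pseudocount of 1. For the 33 chains and the 7 pathway genes past the fold, 79 of 80 comparisons under the pseudocount of 0.1 and the scaling kept their side of the fold, and 1, Col6a6, passed it. At the upper end of the fragment range, 33 of 33 intervals stayed above 1, below 1 or around 1 as they were at the lower end. Of the 11 chains under the minimum, 5 had a counting interval without 1, a count that was not taken over all genes either. The intervals of the other chains there held 1. Few fragments stood behind some of these, such as Col9a1, while Col6a5 had 132 to 180 in HSF V30M and a ratio of 1.10.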

Other observations

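The 11 chains under a mean FPKM of 1 ranged from 0.08 to 1.17 in HSF V30M and from 0.0206 to 1.10 in HSF WT, and 0 of them passed the fold with the pseudocount of 1. The chains named here were singled out after their values were seen. Col10a1, the chain of hypertrophic cartilage, had 0.533 in HSF WT and 1.17 in HSF V30M, about 24 to 32 fragments against 75 to 88, a ratio of 2.20 (1.37 to 3.64). Col17a1, the hemidesmosome collagen of epithelia, had 0.520 and 0.89, a ratio of 1.71 (1.18 to 2.52). Col22a1, known from the muscle-tendon junction, had 0.0206 and 0.18, of which the HSF WT value stands for 2 to 4 fragments. Col13a1, Col19a1 and Col25a1 stood for fewer than 20 fragments in either group.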
